A study of Astyanax mexicanus with 26 samples.

Results

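Among the H3K4me3 regions of adult *Astyanax mexicanus* liver, 4005 carried H3K4me3 in both cave morphs but not in surface fish, on H3K27me3 that all 3 morphs shared and without H3K27ac in any morph. Overlapping or touching H3K4me3 peaks of the 3 morphs were merged into 148050 union regions. A cave-only region was a union region met by a Pachón peak and a Tinaja peak and by no surface peak. It also had to meet an H3K27me3 peak of each morph, here called constant H3K27me3, and no H3K27ac peak. The 4005 regions were 2.71% of all union regions. The regions were selected on the presence and absence of peaks in the 9 lists, so the marks that define them are a description and not a finding, and none of the values was tested.

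The series compared whole adult livers of the surface morph, the Pachón cave morph and the Tinaja cave morph by chromatin immunoprecipitation and sequencing. Each morph and mark had 2 libraries, except Tinaja H3K4me3 and H3K27ac with 3, and each morph and mark had 1 deposited peak list. No spread between replicates is therefore known, and a peak that is missing from a list may be a weak one. Surface H3K4me3 and H3K27ac libraries carried the number 1930, Pachón ones 1889 and 1934, and Tinaja ones 1934 and 2005. Surface against cave and library number therefore cannot be told apart for either mark. All H3K27me3 libraries carried the number 2399. The labels name no treatment, sex or exact age. The lists name no genes, so neither the liver label nor any gene at these regions could be checked.

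H3K27me3 is written by Polycomb repressive complex 2 and is found over silent genes, above all regulators of development. H3K4me3 is written by the COMPASS family of methyltransferases and marks promoters, most of them active. Loci with both marks are called bivalent and were first described in embryonic stem cells, where many are promoters of developmental regulators. H3K27ac, which accompanies active promoters and enhancers, sits on the same lysine as H3K27me3, so one histone tail cannot carry both. Cave morphs of this species are known for fat storage and tolerance of starvation, and the liver is central to both. In whole liver, a mark on more cells and a stronger mark per cell cannot be told apart, nor can both marks on one chromosome and marks in different cells.

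The cave-only regions were short stretches, each usually made of a single peak per morph and mark. Their median width was 600 bp, with quartiles of 458 and 862 bp and a range from 244 to 6839 bp. The H3K4me3 inside them summed to a median of 468 bp in Pachón (quartiles 360 and 677) and 539 bp in Tinaja (402 and 785). A single H3K4me3 peak made up the mark in 3858 regions in Pachón and in 3856 in Tinaja. For H3K27me3 the regions with a single peak numbered 3758 for the surface list, 3837 for the Pachón list and 3847 for the Tinaja list.

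The H3K4me3 of the 2 cave morphs overlapped in every region, as the rule nearly requires, and the extent varied. Bases under H3K4me3 of both caves made up a median of 74.9% of a region (quartiles 60.8% and 85.6%), and the rest was marked in one cave only. The Tinaja H3K4me3 was the wider in 2601 regions, or 64.9%, below the 73.9% found over all union regions with both cave peaks. The Pachón H3K4me3 was the wider in 1386 regions. Regions wide in one cave tended to be wide in the other, with a Spearman rho of 0.64 between the summed widths over the 4005 regions. Both widths are bounded by the same region, and neighbouring regions are not independent, so the coefficient is descriptive.

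Overlap with H3K27me3 was part of the rule, and its extent is given here as a description. In 3962 regions, or 98.9%, some bases were at once under H3K4me3 of both caves and H3K27me3 of all 3 morphs, with a median of 370 bp per region. The surface H3K27me3 covered a median of 93.3% of a region, the Pachón H3K27me3 98.7% and the Tinaja H3K27me3 98.3%. The whole region lay under surface H3K27me3 in 1251 cases, under Pachón H3K27me3 in 1750 and under Tinaja H3K27me3 in 1691. H3K27me3 covered at least 50% of the region in every morph at 3674 regions. Coverage varied among other H3K4me3 regions on constant H3K27me3 without H3K27ac. Where all 3 morphs had H3K4me3, the medians were 92.9%, 94.2% and 91.9% in surface, Pachón and Tinaja. The cave medians there were thus below those of the cave-only regions, and the surface median was similar. Where surface and Pachón had H3K4me3 the medians were 96.8%, 89.7% and 78.6%, and where Tinaja alone had it 100% in each morph. These classes also differed in width. The median was 600 bp for cave-only regions and 1016 bp for all 3 morphs. It was 630 bp for surface and Pachón and 382 bp for Tinaja alone. Among cave-only regions, median surface coverage was 97.6% under 500 bp and 88.6% from 1000 to under 2000 bp. Coverage was not compared between classes at equal width.

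**Figure D1:**
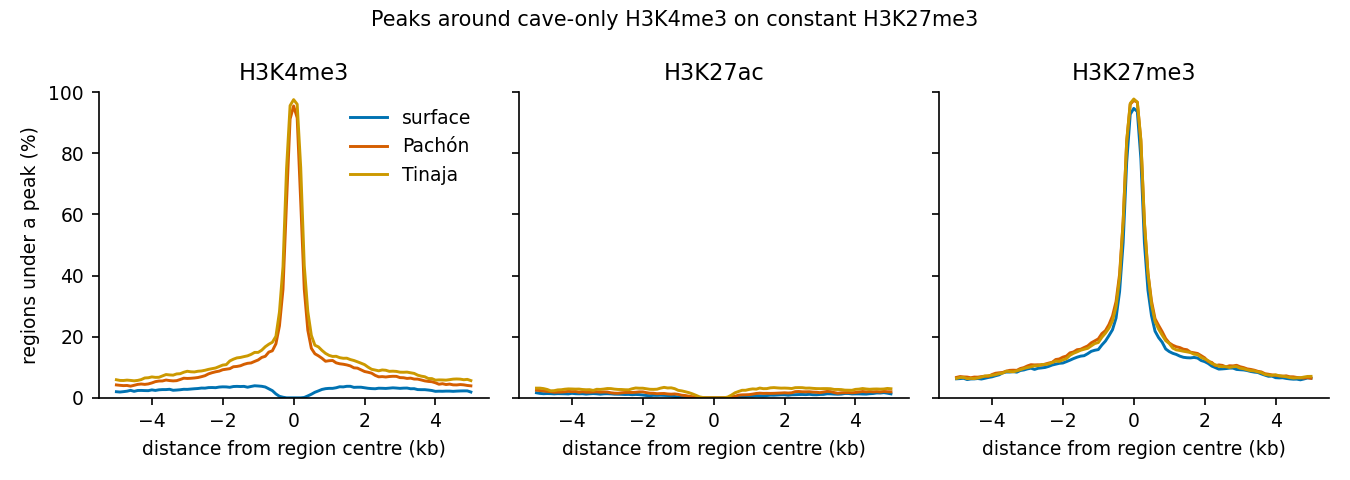
Share of the 4005 cave-only regions with a peak at each distance from the region centre (x axis, kb; y axis, percent of regions), for H3K4me3, H3K27ac and H3K27me3 and the 3 morphs. At the centre, cave H3K4me3 and the H3K27me3 of all morphs lie above 90% and the marks used to leave regions out lie at 0, as the rule sets; at 1000 bp surface H3K4me3 reaches 3.48% against 12.3% in Pachón and 14.4% in Tinaja.

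Around the regions, H3K4me3 differed between the morphs more than H3K27me3 did, and this was also so around regions with H3K4me3 in all 3 morphs. At 1000 bp from the centre, on average over both sides, a surface H3K4me3 peak was listed at 3.48% of regions, a Pachón peak at 12.3% and a Tinaja peak at 14.4%. H3K27me3 was listed there at 15.5%, 18.6% and 17.9% in the same order. Around the 3867 regions of all 3 morphs on constant H3K27me3, the H3K4me3 values at that distance were 14.4%, 23.4% and 23.8% and the H3K27me3 values 25.1%, 25.7% and 23.6%. Those regions were wider, with a median of 1016 bp against 600 bp. From 2000 bp up, where 1000 bp from the centre lies inside the region itself, there were 569 of them and 75 cave-only regions. The 2 sets were not compared at equal width. At 5000 bp from the centre of the cave-only regions, H3K4me3 stood at 1.95%, 4.07% and 5.78%, and H3K27me3 at 6.33%, 6.54% and 6.69%. The H3K4me3 lists differ in length, with 56323 surface, 64432 Pachón and 136219 Tinaja peaks, and a longer list raises its curve at any distance. The H3K27me3 lists are near equal, with 97948, 98198 and 99370 peaks, and their libraries share a number. The contrast between the marks therefore cannot be told apart from list length and library number. Around the 2267 H3K4me3 regions of both caves alone that had neither H3K27me3 nor H3K27ac in any morph, H3K4me3 at 1000 bp was listed at 5.16%, 7.48% and 12.7%. At 1000 bp, surface H3K4me3 was thus listed less often near the cave-only regions than near those, and Pachón and Tinaja H3K4me3 more often. At 5000 bp the 2267 regions stood at 4.96%, 5.36% and 10.3%, above the cave-only regions in every morph. The median width of the 2267 was 463 bp, against 600 bp for the cave-only regions.

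The regions lay at widely varying distances from surface H3K4me3, with a surface peak within 10 kb of 1885 of them (47.1%). The nearest surface H3K4me3 peak was a median of 10883 bp away (quartiles 2764 and 29448 bp), and 62 regions had none on their sequence. Within 1 kb of 516 regions, or 12.9%, a surface peak was listed, near the 13.8% found over all H3K4me3 regions of both caves alone. The 2267 regions of both caves alone with neither H3K27me3 nor H3K27ac in any morph lay closer to surface H3K4me3, at a median of 4439.5 bp. A surface peak lay within 10 kb of 73.0% of these 2267. The nearest H3K27ac peak was a median of 23912 bp away in surface, 15441 bp in Pachón and 7832 bp in Tinaja. That order follows the lengths of the H3K27ac lists.

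At the edge of the rule, the 4 placed regions nearest to a surface peak lay 29, 40, 41 and 44 bp from it, on chromosomes 12, 18, 23 and 6. The one on chromosome 12, from 18218002 to 18218821, had 633 bp of Pachón and 519 bp of Tinaja H3K4me3. Just outside the rule were regions of all 3 morphs whose surface peak overlapped the cave peaks by 44 bp on chromosome 19, 63 bp on chromosome 13, 66 bp on chromosome 3 and 145 bp on chromosome 20. That on chromosome 19, from 32478196 to 32479234, had 450 bp of surface, 424 bp of Pachón and 633 bp of Tinaja H3K4me3.

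Constant H3K27me3 without H3K27ac was more frequent under H3K4me3 of both caves alone than under any other combination of morphs. It was present at 22.6% of the 17690 regions with H3K4me3 in both caves and not in surface (exact binomial 95% interval 22.0 to 23.3). These 17690 were themselves 11.9% of all union regions, and the share over all union regions was 13.8%. Regions of surface alone stood at 6.12% (5.51 to 6.77, 352 of 5752), of Pachón alone at 10.5% and of Tinaja alone at 14.6%. Regions of surface and Pachón stood at 9.85%, of surface and Tinaja at 10.6% and of all 3 morphs at 10.8% (3867 of 35695). The intervals cover counting error only, and neighbouring regions are not independent. With every list of a mark cut to the length of the shortest by peak width, the share was 33.3% for both caves, 24.0% for Tinaja alone, 19.5% for Pachón alone, 13.0% for all 3 morphs and 8.54% for surface alone. The cave-only regions then numbered 2680 and the surface-only ones 1103, against 4005 and 352 with full lists. The gap in number between the 2 kinds was thus smaller with the cut lists, and the direction was the same with both. Cutting by width changed list length and peak width together, so the 2 cannot be told apart.

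**Figure D2:**
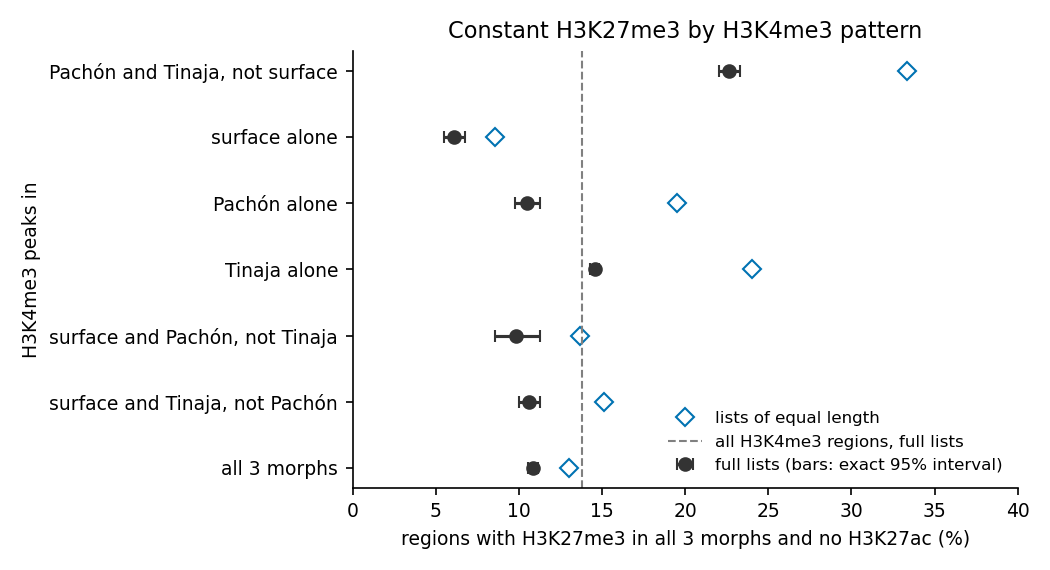
Percent of H3K4me3 regions with H3K27me3 in all 3 morphs and no H3K27ac (x axis), by the morphs with H3K4me3 (y axis); filled points are full lists with exact 95% intervals, diamonds are lists of equal length without intervals, and the dashed line is the 13.8% of all regions. The class of both caves alone lies furthest right with either kind of list, at 22.6% and 33.3%.

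Wider H3K4me3 of both caves alone more often met constant H3K27me3. Because 1 bp of overlap counted, a wider region meets a peak of any list more readily. This holds for the H3K27me3 that counts a region in and for the H3K27ac that leaves it out. What this adds to the rise was not tested. The share rose from 13.4% of regions of 200 to under 350 bp to 17.0% from 350 to under 500 bp, 23.7% from 500 to under 750 bp, 30.4% from 750 to under 1000 bp and 38.9% from 1000 to under 1500 bp, and was 37.2% from 1500 bp up. Regions of all 3 morphs in the same widths rose from 4.65% to 20.3%. Other classes did not rise throughout. Pachón alone stood at 15.7% from 750 to under 1000 bp and at 4.65% (2 of 43) from 1500 bp up. Surface and Pachón stood at 23.2% and 9.43% (5 of 53) in these widths. In the widest class, 13 of 30 regions of Tinaja alone (43.3%, 25.5 to 62.6) stood above the cave pair. From 350 to under 500 bp Tinaja alone, at 16.2%, lay within the interval of the cave pair (16.1 to 18.0).

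Seen from the repressive mark and with H3K27ac left out, both caves alone carried H3K4me3 about as often as all 3 morphs did. Merging the H3K27me3 lists gave 33066 regions with H3K27me3 in all 3 morphs and no H3K27ac. Of these, 40.3% met no H3K4me3 in any morph, 11.7% met it in both caves and not in surface, 11.9% in all 3 morphs and 0.99% in surface alone. Tinaja alone, with the longest H3K4me3 list, accounted for 29.7%. With H3K27ac allowed and counted as H3K4me3 regions, 7453 of both caves alone and 10155 of all 3 morphs met H3K27me3 in every morph. H3K27me3 regions with H3K4me3 in both caves alone had a median width of 770 bp. That lay between the 473 bp of regions without H3K4me3 and the 1102 bp of regions with it in all 3 morphs.

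The share of both caves alone rose with the width of the H3K27me3 region and then fell. Here too a wider region meets an H3K4me3 peak more readily, because 1 bp of overlap counted. It was 5.11% under 500 bp, 11.4% from 500 to under 750 bp, 17.6% from 750 to under 1000 bp, 22.1% from 1000 to under 1500 bp and 24.8% from 1500 to under 2500 bp, and 17.0% from 2500 bp up. In that last class 303 of 394 regions (76.9%) carried H3K4me3 in all 3 morphs and 4 carried none. Regions with H3K4me3 in surface alone stayed between 0.35% and 1.62% at every width.

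**Figure D3:**
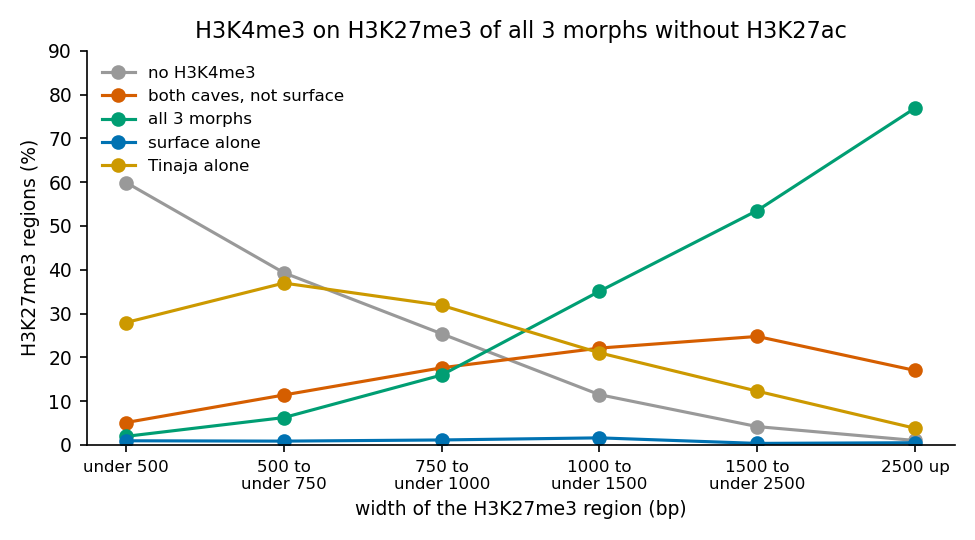
Percent of the 33066 H3K27me3 regions of all 3 morphs without H3K27ac (y axis) that carried H3K4me3 in the named morphs, by width of the H3K27me3 region in bp (x axis). Both caves alone peak at 24.8% from 1500 to under 2500 bp, while the share without H3K4me3 falls from 59.9% to 1.02% and that of all 3 morphs rises to 76.9%.

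H3K27me3 was listed in every morph at these regions, and surface more often had the narrowest of the 3 than the widest. The H3K27me3 peaks meeting a cave-only region summed to a median of 607 bp in surface (quartiles 446 and 927), 683 bp in Pachón (484 and 1048) and 683 bp in Tinaja (490 and 1036). The ranges overlap widely, and the median log2 ratio to surface was 0.080 for Pachón and 0.073 for Tinaja. Surface had the narrowest H3K27me3 of the 3 morphs in 1968 regions (49.1%), against 39.1% of all H3K4me3 regions with constant H3K27me3 and no H3K27ac. It had the widest in 984 regions (24.6%), against 30.8%. The 352 regions with H3K4me3 in surface alone showed the opposite order. There surface H3K27me3 was the narrowest in 23.6% and the widest in 47.2%, with median log2 ratios of -0.10 for Pachón and -0.13 for Tinaja. The 3867 regions with H3K4me3 in all 3 morphs lay between, at 33.9% and 37.5%. Whether H3K27me3 width went with the morph that had H3K4me3 was not tested, and the values of the other classes follow. In the 669 regions of Pachón alone, surface was the narrowest in 41.4% and the widest in 25.6%. Tinaja, without H3K4me3, had a median log2 ratio to surface of 0.057 there, beside 0.062 for Pachón. In the 185 regions of surface and Pachón, Tinaja, again without H3K4me3, had a ratio of -0.26 beside -0.07 for Pachón. For the 10322 regions of Tinaja alone the ratios were 0.016 for Pachón and 0.048 for Tinaja. For the 1032 regions of surface and Tinaja they were -0.041 for Pachón and -0.021 for Tinaja. The labels do not say whether the H3K27me3 and H3K4me3 libraries of a morph came from the same fish.

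**Figure D4:**
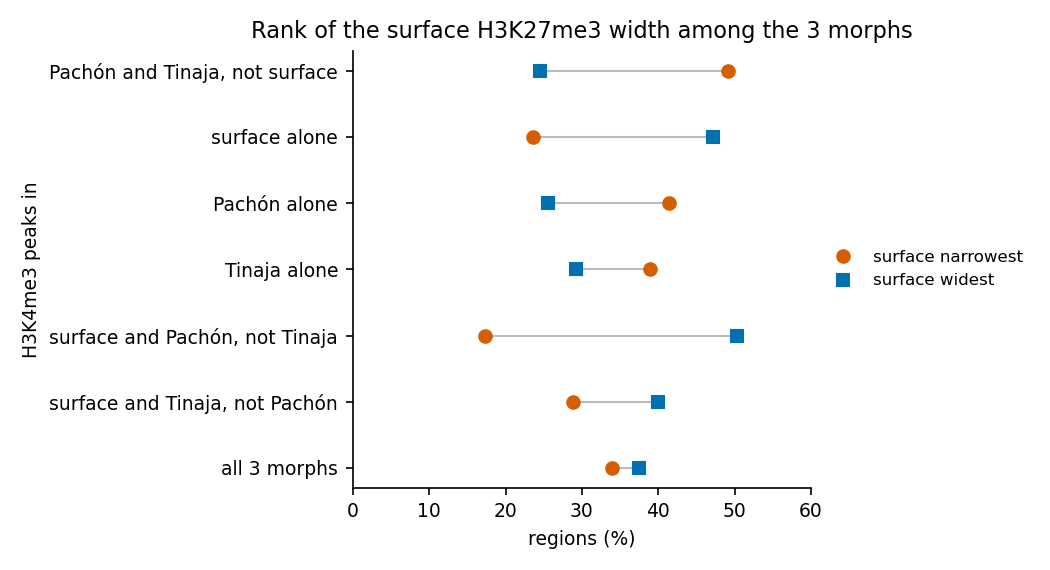
Percent of regions on constant H3K27me3 without H3K27ac (x axis) in which surface had the narrowest (circles) or the widest (squares) H3K27me3 of the 3 morphs, by the morphs with H3K4me3 (y axis). For both caves alone the circle (49.1%) lies right of the square (24.6%), and for surface alone the order is turned (23.6% and 47.2%).

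The wider the cave-only region, the more the surface H3K27me3 fell short of the cave H3K27me3. In the 1304 regions under 500 bp, surface had the narrowest H3K27me3 in 44.9% and the widest in 28.3%. In the 610 regions of 1000 to under 2000 bp these shares were 56.4% and 19.5%, and in the 75 regions from 2000 bp up they were 69.3% and 8%. In these 75 regions H3K27me3 covered a median of 77.9% in surface, 94.9% in Pachón and 93.8% in Tinaja. Among regions of all 3 morphs from 2000 bp up, surface was the narrowest in 42.5% and the widest in 32.5%. So constant H3K27me3 in the rule's sense, any overlap in each morph, did not mean equal H3K27me3 at the wide regions.

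Of the 6 widest regions on placed chromosomes, 3 had H3K27me3 over a much smaller share of their bases in surface than in both caves. On chromosome 16, from 10656743 to 10661207, H3K4me3 summed to 4465 bp in Pachón and 3432 bp in Tinaja, and the nearest surface H3K4me3 was 14930 bp away. Surface H3K27me3 covered 25.4% of it, Pachón H3K27me3 94.9% and Tinaja H3K27me3 53.5%. Both marks were therefore broader in the caves there. On chromosome 2, from 3753539 to 3757224, H3K4me3 measured 3643 bp in Pachón and 3492 bp in Tinaja, and H3K27me3 covered 26.7%, 85.2% and 79.0% of it in surface, Pachón and Tinaja. On chromosome 9, from 10630439 to 10633885, H3K4me3 measured 3409 and 3349 bp, and H3K27me3 covered 27.6%, 87.6% and 69.2% in surface, Pachón and Tinaja. These 2 regions resembled the first, with a surface H3K4me3 peak as near as 652 bp to the one on chromosome 9.

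The other three differed among themselves. On chromosome 21, from 10163184 to 10166775, H3K27me3 was even, at 77.9% in surface, 76.6% in Pachón and 85.0% in Tinaja, under 3576 bp of Pachón and 2753 bp of Tinaja H3K4me3. On chromosome 12, from 9485122 to 9488762, Pachón stood apart in both marks, with 3641 bp of H3K4me3 against 534 bp in Tinaja and H3K27me3 over 95.6% against 24.8% in surface and 18.95% in Tinaja. On chromosome 25, from 20228877 to 20232857, H3K4me3 measured 3981 bp in Pachón and 1008 bp in Tinaja, while H3K27me3 covered between 9.12% and 9.70% in every morph. That region was a broad H3K4me3 stretch with a small H3K27me3 peak in it, unlike most of the 4005.

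The regions were found on every placed chromosome, and a larger share of them than of all H3K4me3 regions lay on unplaced scaffolds. Placed chromosomes held 2439 of them, from 36 on chromosome 11 to 185 on chromosome 3, and 1566 (39.1%) lay on 583 unplaced scaffolds. Of all union regions 29.7% were unplaced, and of regions with H3K4me3 in both caves alone 33.9%. Constant H3K27me3 without H3K27ac was found at 26.1% of regions of both caves alone on scaffolds and at 20.9% on placed chromosomes (20.1 to 21.6). Between placed chromosomes this share ran from 13.8% on chromosome 5 (10.9 to 17.0) and 14.4% on chromosome 14 to 23.9% on chromosome 6 (20.8 to 27.2). The share for regions of all 3 morphs was likewise higher on scaffolds, at 14.3% against 9.36%.

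Most regions stood alone, and some came in groups. The gap to the nearest other cave-only region had a median of 71296 bp, but 752 regions (18.8%) had one within 5 kb and 452 within 1 kb. No matching shares for other classes are at hand, so these counts do not show whether such neighbours are unusual. The nearest H3K4me3 region of any kind was of both caves alone for 24.7%, of Tinaja alone for 43.1% and of all 3 morphs for 19.5%, where these classes made up 11.9%, 47.9% and 24.1% of union regions. It was itself a cave-only region for 507 (12.7%), against 2.71% of union regions. The nearest region was not counted for other classes, so these shares too do not show whether such neighbours are unusual. Of 1967 placed windows of 100 kb with such a region, 1588 held 1 and 5 held 5 or more.

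On chromosome 24, the window from 29100001 to 29200000 held 7 cave-only regions, the most of any placed window. It held 14 H3K4me3 regions, of which 7 were of both caves alone, 3 of all 3 morphs, 4 of Tinaja alone and 0 of surface alone. H3K27me3 was even there, with 17 peaks per list covering 10.04 kb for surface, 10.02 kb for Pachón and 11.5 kb for Tinaja. H3K4me3 covered 2.57, 6.25 and 8.81 kb. The window was chosen for its number of cave-only regions, so this contrast between the marks follows in part from the rule. The 6 regions from 29102333 to 29116418 lay within 14.1 kb around a single surface H3K4me3 peak, and H3K27me3 covered 28.4%, 31.7% and 33.9% of that stretch in surface, Pachón and Tinaja. On chromosome 7, from 22000001 to 22100000, 5 of 17 H3K4me3 regions were cave-only, and on chromosome 12, from 14700001 to 14800000, 5 of 14 were. H3K27me3 covered 12.8, 14.8 and 16.1 kb of the chromosome 7 window and 7.86, 10.6 and 9.73 kb of the chromosome 12 window in surface, Pachón and Tinaja.

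**Figure D5:**
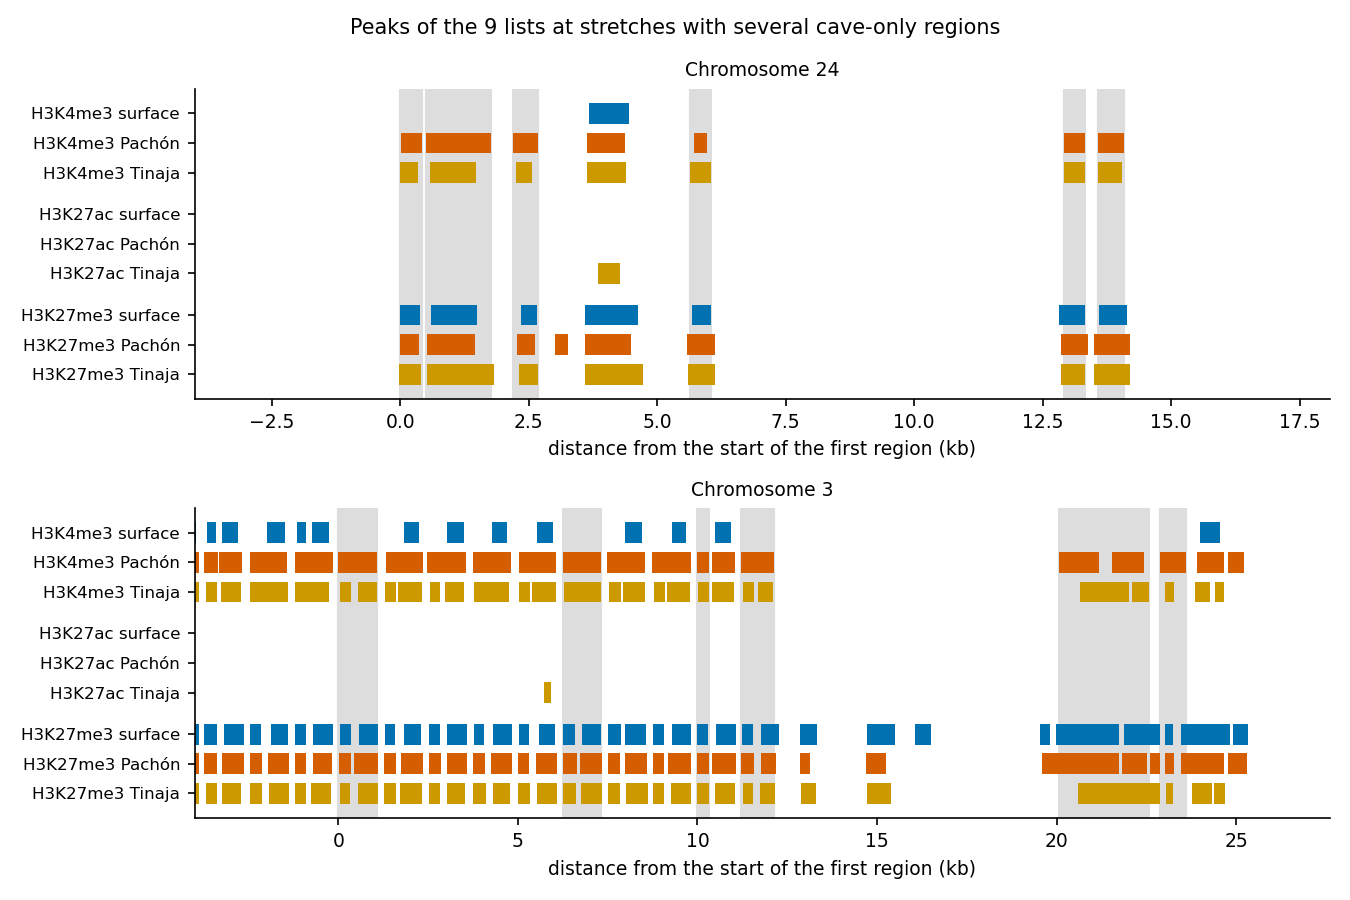
Peaks of the 9 lists (rows; blue surface, orange Pachón, yellow Tinaja) along a stretch of chromosome 24 and one of chromosome 3, by distance in kb from the start of the first cave-only region (x axis), with cave-only regions shaded grey. On chromosome 24 a single surface H3K4me3 peak lies among 6 shaded regions; on chromosome 3 the H3K27me3 peaks of all 3 morphs are evenly spaced in the left part of the stretch and irregular in the right part.

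The window on chromosome 3 from 53600001 to 53700000 held 6 cave-only regions among 12 regions with H3K4me3 of all 3 morphs on constant H3K27me3. Of these 6, 4 sat in a row of evenly spaced H3K27me3 peaks from 53622740 to 53640971, a stretch singled out after the map was seen. In these 18.2 kb each morph listed 29 H3K27me3 peaks, with a median spacing of 622 bp between peak centres in surface (10th to 90th percentile 596 to 648), 624 bp in Pachón and 619 bp in Tinaja. H3K4me3 was less even. Pachón H3K4me3 made 16 peaks with a median spacing of 1215 bp (10th to 90th percentile 676 to 1271). Surface H3K4me3 made 13 peaks at 1229 bp (551 to 2361.5), while Tinaja made 23 at 695 bp (536 to 1058). Surface H3K4me3 covered 30.1% of the stretch, Pachón H3K4me3 79.8% and Tinaja H3K4me3 71.3%. The cave-only regions there lay 155 to 288 bp from a surface H3K4me3 peak, so at this place they were positions skipped by the surface list inside a row of H3K4me3 common to the morphs. The labels do not say how reads with several possible positions were handled, and whether the row is a repeated sequence was not tested.

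Long runs of H3K27me3 peaks were rare among the cave-only regions, as they were among all surface H3K27me3 peaks. Joining surface H3K27me3 peaks at most 1 kb apart, 2308 regions (57.6%) met a single peak with no neighbour. Among regions with H3K4me3 in all 3 morphs on constant H3K27me3, 48.4% did. A run of 5 or more was met by 119 cave-only regions (2.97%) and by 5.48% of those of all 3 morphs. The regions of all 3 morphs were wider, with a median of 1016 bp against 600 bp, and the shares were not compared at equal width. Of all surface H3K27me3 peaks, counted as peaks and not as regions, 1.88% lay in runs of 5 or more. Runs of 10 or more peaks held 11 of the 4005 regions (0.27%), against 42 of the 3867 regions with H3K4me3 in all 3 morphs (1.09%) and 0.247% of all surface H3K27me3 peaks.

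Where all 3 morphs had H3K4me3 on constant H3K27me3, the surface mark was also the narrowest most often. It summed to a median of 628 bp in surface, 808 bp in Pachón and 864 bp in Tinaja. Surface was narrower than both caves in 2299 of 3867 regions (59.5%), near the 61% of all H3K4me3 regions of the 3 morphs, and wider than both in 621 (16.1%), against 12%. Narrower surface H3K4me3 was therefore not particular to regions with H3K27me3.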

How the data were processed

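Livers of 3 morphs were profiled for 3 marks in 20 immunoprecipitates, with 6 total chromatin libraries as background, per the labels. Bowtie2, SAMtools, MACS2 and bcl2fastq 2.20 are listed in the submitters' processing notes, without settings. No source used here states the genome build or how replicates were pooled. The authors deposited 9 lists of peak positions in bp (starts counted from 0, printed here from 1). Every deposited score is 0 and depth is unknown, so list length is not an amount of mark.

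Overlap meant 1 bp or more, on all 25 placed chromosomes and 2103 other sequences. With 1 list per morph and mark, no test between morphs was made. Exact binomial intervals are at 95%. Regions named are the 6 widest, the 4 windows with most, and the 4 nearest either side of the rule, all placed. Members, lists and this rule were chosen with earlier results of these data known. The gene table at hand, of AstMex3_surface, did not match the lists (last peak on chromosome 1 at 27.0 Mb, last gene at 134 Mb), so no genes or sequences are given. Interval arithmetic was tested on simulated data, 30 sets, with 0 mismatches in 14121 values. Software was Matplotlib 3.10.9, SciPy 1.17.1 and NumPy 2.4.6 under Python 3.11.15.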

Additional observations from a re-analysis of the deposited data

How the results depend on the processing

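In all settings tried in which every class was recounted, the share of constant H3K27me3 was highest for H3K4me3 of both caves alone. It was counted without H3K27ac, except in the setting that allowed H3K27ac. The cave-only regions numbered 2455 in the wider 50% of every list and 2439 on placed chromosomes, and between 2680 and 3996 under the other settings that kept the H3K27ac condition. With H3K27ac allowed they numbered 7453. Their share of the regions of both caves alone was 33.3% with lists of equal length, 30.1% in the wider 50%, 21.2% with H3K4me3 peaks up to 1 kb apart merged and 20.9% on placed chromosomes. It was 20.8% with H3K27me3 under at least 50% of the bases, and 42.1% with H3K27ac allowed. With H3K27ac allowed, regions of all 3 morphs stood at 28.4% and Tinaja alone at 22.4%, against 10.8% and 14.6% in the main setting. The surface-only share was 8.54% with equal lists, 7.19% in the wider 50% and 7.39% with H3K27ac allowed. Median width was 776.5 bp with equal lists, 949 bp in the wider 50%, 725 bp after merging and 578 bp with H3K27me3 under 50% of the bases. Median surface H3K27me3 coverage was 91.9% with equal lists, 91.7% in the wider 50%, 89.4% after merging and 94.3% on placed chromosomes. A surface H3K4me3 peak within 1 kb was found for 8.23% in the wider 50% and, by construction, 0% after merging. Keeping wider peaks raises widths by construction; the cause of the other shifts was not tested. The 3 settings on distance from surface peaks, on H3K27me3 under 50% of the bases and on H3K27ac were chosen after seeing the data. No paired analysis was possible because replicates were pooled into 1 list per morph and mark, and for the same reason no replicate could be left out.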

Other observations

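H3K27ac decided which regions of both caves alone on constant H3K27me3 counted as cave-only. Of 7453 such regions, 3448 were left out because they met H3K27ac in some morph. Tinaja H3K27ac was met by 3261 of these, Pachón H3K27ac by 1622 and surface H3K27ac by 573. In 1792 it was Tinaja alone, in 915 both caves and not surface, in 527 all 3 morphs and in 7 surface alone. The Tinaja H3K27ac list was the longest, with 117125 peaks against 93527 in Pachón and 70089 in surface. The counts of left-out regions had the same order as list length, with a larger gap between Tinaja and surface than the lists had. Whether list length made the counts was not tested. Of regions with H3K27me3 in every morph, 53.7% of both caves alone met no H3K27ac. The share was 38.1% for all 3 morphs, 65.0% for Tinaja alone and 82.8% for surface alone.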
